A study of Mus musculus with 16 samples.

Results

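Ift88Orpk was compared with wild type in leukocytes of BALB/c mouse liver: Ly6Chi infiltrating macrophages, Ly6Clo infiltrating macrophages and neutrophils. The 6 libraries were chosen by their labels from the 16 of the series, which also holds C57BL/6 mice and a population sorted with the lectin DBA and labelled cholangiocytes. The Ift88Orpk group had 1 library of each leukocyte population (3 libraries), and the wild type group likewise (3 libraries), and all mice were 4 weeks old. A library stands for pooled RNA of 6 to 8 animals, labelled as equal amounts and equal numbers of each sex, so that it is an average over mice. The labels do not give the zygosity of the allele, nor say whether the populations were sorted from the same mice. The 3 populations served as the replicates of the genotype effect: a gene that passed the test changed in a way shared by the populations, and whether it would repeat in other pools of mice was not measured.

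Ift88 encodes a subunit of the intraflagellar transport complex that carries cargo along the primary cilium, the antenna-like organelle of most epithelial cells. Orpk is an insertion allele that lowers the function of Ift88, and mice that carry it develop cysts and fibrosis of kidney and liver, with widened bile ducts. Circulating myeloid cells are not known for cilia. Monocytes that enter an injured liver are first high in the surface protein Ly6C and can become Ly6C-low macrophages that clear debris and lipid, while neutrophils are drawn in by CXC chemokines.

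Gene counts ran from 16979235 to 22442429 per library (median 19636414.5). Neutrophil markers summed to 24900 CPM (counts scaled to a common library total) in the Ift88Orpk neutrophils and 17700 CPM in the wild type neutrophils, against 555 to 953 CPM in the 4 macrophage libraries. Ly6Chi monocyte markers were highest in the Ly6Chi library of each genotype. Ly6Clo monocyte markers separated the populations less, at 3350, 3830 and 3990 CPM in the Ift88Orpk Ly6Chi, Ly6Clo and neutrophil libraries and 4150, 5500 and 4250 CPM in those of wild type. Mitochondrially encoded genes took 2.98%, 2.64% and 3.15% of the counts in the Ift88Orpk Ly6Chi, Ly6Clo and neutrophil libraries, and 6.66%, 4.78% and 11.05% in those of wild type. Xist stood at 434, 824 and 112 CPM in the Ift88Orpk libraries, in the same order, and at 126, 199 and 154 CPM in wild type, although the pools are labelled as balanced for sex. The part of sex balance in the results was not tested. Ift88 itself had 5.16, 4.01 and 7.57 CPM in Ift88Orpk, against 3.79, 2.84 and 1.80 CPM in wild type (log2 fold change 0.98 ± 0.47, adjusted p = 0.504). Counts over the whole gene do not tell the insertion allele from the intact one, so this level does not check the labels. Here and below the order of populations is Ly6Chi, Ly6Clo, neutrophils, CPM of single genes are scaled with TMM (trimmed mean of M values) factors and those of summed markers are not, and each log2 fold change is of Ift88Orpk over wild type with its standard error.

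Of 16379 genes tested, 63 were called higher in Ift88Orpk (0.385%) and 121 lower (0.739%) at an adjusted p below 0.05 (edgeR, the test behind every call below unless another is named), and each of these 184 genes moved the same way in all 3 pairs of libraries. The higher genes included membrane proteins of myeloid cells (Ms4a7, C3ar1, Trem2 and Cd14) and the secreted matrix proteins Vcan and Spon1. In each genotype Vcan, Spon1, Ms4a7, C3ar1 and Trem2 were highest in a macrophage library. Cd14, Cxcl2, Ier3, Gpat3 and Soat2, also called higher, were highest in neutrophils. The lower genes were led by genes of hepatocytes and liver endothelium, and 3 of 10 Kupffer cell markers were also among them. The median log2 fold change over all genes was 0.0072. At an unadjusted p below 0.05, 909 of the 16379 genes were higher and 980 lower. DESeq2 called 392 of the 16379 higher and 466 lower. The counts given for single lists below are to be read beside these. Without regard to a test, 2970 genes were higher in all 3 pairs (18.1%) and 2812 lower in all 3 (17.2%), while 60 were at least 2-fold higher in every pair (0.366%) and 184 at least 2-fold lower in every pair (1.12%).

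The neutrophil pair differed most. At 2-fold, on log2 values with a pseudocount of 1 CPM, 593 genes were higher (3.62%) and 631 lower (3.85%) in the Ly6Chi pair, 582 higher (3.55%) and 752 lower (4.59%) in the Ly6Clo pair, and 1174 higher (7.17%) and 1669 lower (10.2%) in the neutrophil pair. Each pair is 1 library against 1 library. With the neutrophil pair left out, the test called 757 genes, 390 higher and 367 lower, and 172 of the 184 genes were among them. Without the Ly6Chi pair it called 322 and without the Ly6Clo pair 595, with 155 and 181 of the 184 among them. Most of the calls thus did not need the neutrophil libraries, and the count of calls depended on which pair was left out.

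**Figure D1:**
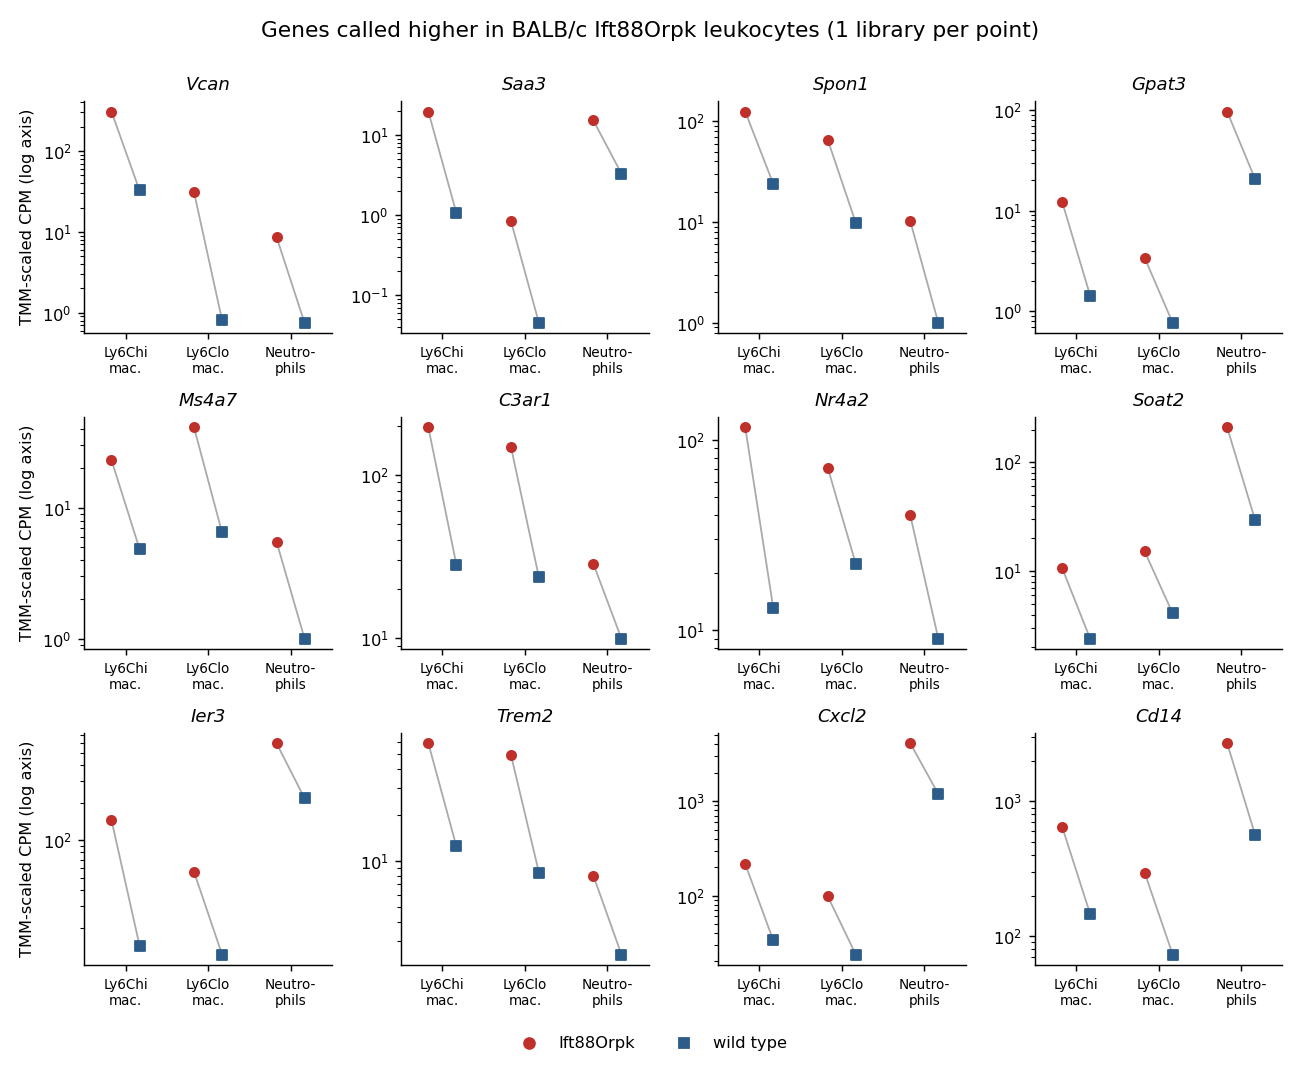
TMM-scaled CPM (log axis) of the 12 genes with the largest fold changes among those called higher, in each population, with Ift88Orpk (circles) left of wild type (squares). Each point is 1 library and lines join the libraries of 1 population. In every panel the circle lies above its square in all 3 populations, as for Cd14 with 649, 296 and 2700 CPM in Ift88Orpk and 146, 73.0 and 561 CPM in wild type.

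Of the 12 named higher genes, Cd14, C3ar1, Trem2 and Ms4a7 encode membrane proteins of myeloid cells. Cd14, the co-receptor that hands bacterial lipopolysaccharide to Toll-like receptor 4, had 649, 296 and 2700 CPM in Ift88Orpk and 146, 73.0 and 561 CPM in wild type (log2 fold change 2.14 ± 0.20, adjusted p = 0.0192). Its ratio was close in size in the 3 pairs, at 4.43, 4.05 and 4.80, although its level was far higher in neutrophils. C3ar1, the receptor of the complement fragment C3a, had 195, 149 and 28.5 CPM in Ift88Orpk and 28.2, 23.6 and 9.93 CPM in wild type (2.34 ± 0.28, adjusted p = 0.0264). Trem2, a lipid-sensing receptor of tissue macrophages, had 58.6, 49.4 and 7.98 CPM in Ift88Orpk and 12.4, 8.38 and 2.44 CPM in wild type (2.20 ± 0.24, adjusted p = 0.0192). Ms4a7, a membrane protein of macrophages, had 23.2, 41.2 and 5.51 CPM in Ift88Orpk and 4.85, 6.48 and 0.998 CPM in wild type (2.46 ± 0.24, adjusted p = 0.0192). For C3ar1, Trem2 and Ms4a7 the neutrophil libraries were the lowest of their genotype, and every Ift88Orpk library was above its wild type partner.

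Among 20 Toll-like receptor and signalling genes, 2 were called higher and none lower (4 and 0 called by DESeq2), 10 were higher and 2 lower in all 3 pairs, and the median log2 fold change was 0.29 against 0.01 over all genes. The other called member was Tlr2, a receptor of bacterial lipoproteins, with 432, 206 and 1080 CPM in Ift88Orpk and 179, 96.7 and 484 CPM in wild type (1.17 ± 0.18, adjusted p = 0.0411). Tlr11, a Toll-like receptor outside the list and chosen after its values were seen, was called lower with 5.85, 14.7 and 0.494 CPM in Ift88Orpk and 14.5, 46.2 and 1.55 CPM in wild type (-1.51 ± 0.24, adjusted p = 0.0468, and 0.205 without the Ly6Clo pair). Receptors of innate recognition were thus called in both directions. Of 17 genes in the chemokine receptor list, 1 was called higher and none lower (6 and 2 called by DESeq2). The called member was Fpr1, a receptor of formyl peptides and not of chemokines. Fpr1 had 9.87, 10.8 and 285 CPM in Ift88Orpk and 2.73, 3.96 and 126 CPM in wild type (1.47 ± 0.19, adjusted p = 0.0309). Of 12 neutrophil markers, Cxcl2 and Clec4d were called higher. Clec4d, a C-type lectin receptor of myeloid cells, had 40.8, 21.9 and 1200 CPM in Ift88Orpk and 15.2, 8.06 and 588 CPM in wild type (1.29 ± 0.19, adjusted p = 0.0388), and the summed neutrophil markers were 1.54, 0.682 and 1.41 times those of wild type in the 3 pairs, so they did not move one way.

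Vcan and Spon1 encode secreted matrix proteins and had the largest and the third largest log2 fold change of the 12 named higher genes. Vcan, the large proteoglycan versican and a marker of Ly6Chi monocytes, had 307, 31.0 and 8.64 CPM in Ift88Orpk and 32.5, 0.811 and 0.748 CPM in wild type (3.90 ± 0.40, adjusted p = 0.0192). Spon1, a secreted matrix protein, had 125, 65.5 and 10.2 CPM in Ift88Orpk and 23.9, 9.82 and 0.998 CPM in wild type (2.75 ± 0.23, adjusted p = 0.0192). Of the 3 leukocyte populations, Ly6Chi macrophages had the most of both in each genotype. Both were also higher in the DBA-sorted cells of Ift88Orpk. Without TMM scaling, Vcan had 355 CPM there in Ift88Orpk and 41.9 CPM in wild type, and Spon1 158 and 16.3 CPM. Vcan was the only called gene of 11 Ly6Chi monocyte markers, whose median log2 fold change was 0.63. Ccr2, the receptor that draws monocytes out of bone marrow, had 2290, 970 and 129 CPM in Ift88Orpk and 1460, 521 and 27.6 CPM in wild type and was not called (1.24 ± 0.34, adjusted p = 0.180). The extracellular matrix list was mixed, with Vcan called higher and Nid1, Sparc and Dcn called lower among 28 genes, 10 positive and 18 negative (median -0.63). Its summed CPM were 1.19, 2.47 and 0.523 times those of wild type in the 3 pairs.

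Inflammatory and early response genes formed the next group of called higher genes. Cxcl2, a chemokine that attracts neutrophils, had 216, 98 and 4110 CPM in Ift88Orpk and 33.4, 23.7 and 1190 CPM in wild type (2.17 ± 0.26, adjusted p = 0.0264). Ier3, an early response gene of stress and NF-kB signalling, had 145, 55.9 and 596 CPM in Ift88Orpk and 14.4, 12.2 and 216 CPM in wild type (2.31 ± 0.36, adjusted p = 0.0414). Both were highest in neutrophils, where the ratio was the smallest of the 3 pairs (3.44 for Cxcl2 and 2.76 for Ier3). Nr4a2, an orphan nuclear receptor induced early after stimulation, had 116, 71.1 and 40.0 CPM in Ift88Orpk and 13, 22.2 and 8.98 CPM in wild type (2.33 ± 0.30, adjusted p = 0.0297). Saa3, a serum amyloid A protein made by macrophages, had 19.6, 0.849 and 15.2 CPM in Ift88Orpk and 1.06, 0.0450 and 3.29 CPM in wild type (3.27 ± 0.53, adjusted p = 0.0468). The Ly6Clo values of Saa3 were 22 counts in Ift88Orpk and 1 in wild type, and its adjusted p was 0.0746 without the Ly6Chi pair. Saa3 belongs to a family of close copies, and the sources used here do not say how reads were divided between them.

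The promoters of Cxcl2 and Ier3 are shown because they are the named higher genes whose window held the NF-kB consensus. They are given from 250 bases before to 50 after the start site, 5′ to 3′ on the strand of the gene, from RefSeq (GRCm38.p6), with the match in capitals.
Cxcl2 (chr5:90903649-90903948, plus strand): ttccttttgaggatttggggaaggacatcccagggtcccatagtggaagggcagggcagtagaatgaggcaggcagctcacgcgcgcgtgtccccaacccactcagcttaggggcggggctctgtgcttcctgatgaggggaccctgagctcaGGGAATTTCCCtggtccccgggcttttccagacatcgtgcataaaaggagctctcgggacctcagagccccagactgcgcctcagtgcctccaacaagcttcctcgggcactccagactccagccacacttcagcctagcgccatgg
Ier3 (chr17:35821463-35821762, plus strand): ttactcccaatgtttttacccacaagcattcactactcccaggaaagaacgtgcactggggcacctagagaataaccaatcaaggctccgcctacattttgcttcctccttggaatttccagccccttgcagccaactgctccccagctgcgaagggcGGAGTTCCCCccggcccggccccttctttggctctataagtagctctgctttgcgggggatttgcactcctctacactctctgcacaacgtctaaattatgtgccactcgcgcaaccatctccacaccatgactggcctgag
The consensus, searched on both strands, was in 7 of 45 promoters of genes called higher (15.6%) and in 8 of 106 promoters of genes called lower (7.55%), against 692 of 13733 promoters of genes tested (5.04%) and 1480 of 32851 in the whole table (4.51%). The AP-1 motif TGANTCA was in 11.1% of promoters of genes called higher and 5.66% of those called lower, against 5.42% of promoters of genes tested and 7.81% in the whole table. The full palindromic cAMP response element was in 2.22% of promoters of genes called higher and 0.943% of those called lower, against 2.84% of promoters of genes tested and 1.79% in the whole table. In the Cxcl2 window the capitals join overlapping matches of the NF-kB consensus on the plus and minus strands. The 2 windows shown held no match to the AP-1 motif or the full cAMP response element. A match describes the letters of the window and is no evidence of binding, and a gene can have several promoters. Of the 24 named genes, 19 had a promoter in the table.

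Whole lists of inflammatory genes leaned the same way with few calls. Of 30 inflammatory cytokines and NF-kB targets, Ier3 alone was called higher and none lower (11 and 0 called by DESeq2), while 17 were higher in all 3 pairs and 1 was lower in all 3 (median 0.67). Osm, the cytokine oncostatin M, had 305, 117 and 2160 CPM in Ift88Orpk and 67.2, 22.4 and 1170 CPM in wild type and was not called (1.82 ± 0.33, adjusted p = 0.0628). Il1rn, the interleukin 1 receptor antagonist, had 116, 62.1 and 1220 CPM in Ift88Orpk and 59.6, 20.4 and 567 CPM in wild type (1.22 ± 0.20, adjusted p = 0.0503). Of 20 chemokine ligands, Cxcl2 was called higher and none lower (6 and 2 called by DESeq2), 9 were higher and 2 lower in all 3 pairs, and the median was 0.56. Cxcl1 had 4.88, 3.32 and 32.3 CPM in Ift88Orpk and 1.53, 1.67 and 11 CPM in wild type (1.41 ± 0.29, adjusted p = 0.0846), whereas Cxcl9, a chemokine induced by interferon gamma, had 11.4, 4.67 and 4.11 CPM in Ift88Orpk and 89.7, 14.1 and 11.2 CPM in wild type (-2.03 ± 0.34, adjusted p = 0.0517). Of 24 immediate early genes, Nr4a2 and Maff were called higher and none lower (6 and 0 called by DESeq2), with a median of 0.50. Maff, a small transcription factor of the stress response, had 21.1, 17.4 and 182 CPM in Ift88Orpk and 7.67, 8.29 and 42.3 CPM in wild type (1.56 ± 0.24, adjusted p = 0.0411). None of 40 interferon-stimulated genes was called by edgeR (2 higher and 3 lower at an unadjusted p below 0.05, 1 and 1 called by DESeq2), with a median of 0.12.

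Genes of lipid handling were also among the called ones. Gpat3, an acyltransferase of triglyceride synthesis, had 12.3, 3.40 and 96.8 CPM in Ift88Orpk and 1.43, 0.766 and 20.5 CPM in wild type (2.49 ± 0.26, adjusted p = 0.0192). Soat2, which esterifies cholesterol, had 10.7, 15.2 and 209 CPM in Ift88Orpk and 2.40, 4.10 and 29.3 CPM in wild type (2.32 ± 0.24, adjusted p = 0.0192). Abca1, which exports cholesterol from cells, had 175, 295 and 228 CPM in Ift88Orpk and 34.5, 72.7 and 112 CPM in wild type (1.80 ± 0.27, adjusted p = 0.0411). Gpat3 and Soat2 were highest in neutrophils, and for Abca1 the Ift88Orpk libraries did not overlap the wild type ones. Of 22 genes of lipid- and scar-associated macrophages, Trem2 and Abca1 were called higher and Cd5l lower (median 0.48). None of 20 cholesterol synthesis and uptake genes was called by edgeR (0 higher and 2 lower at an unadjusted p below 0.05, 0 and 1 called by DESeq2).

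Several other lists held 1 gene called higher. Il4ra, the interleukin 4 receptor chain, was the 1 gene called higher of 20 alternative activation genes. It had 257, 177 and 551 CPM in Ift88Orpk and 82.3, 78.8 and 270 CPM in wild type (1.28 ± 0.19, adjusted p = 0.0411). The alternative activation list leaned the other way, with 8 positive and 12 negative genes (median -0.42), although none was called lower. Of its genes, 2 were higher in every pair and 6 lower in every pair. Its medians within the pairs were -0.37, -0.32 and -0.41. Srxn1, which repairs oxidised peroxiredoxins, was the 1 gene called higher of 25 NADPH oxidase and glutathione genes. It had 17.1, 17.1 and 34 CPM in Ift88Orpk and 5.50, 6.66 and 11.1 CPM in wild type (1.54 ± 0.21, adjusted p = 0.0361). H2-Q7, a class I molecule of the Q region, was the 1 of 18 MHC class I presentation genes, with 57.4, 75.7 and 62.4 CPM in Ift88Orpk and 16.4, 28.4 and 16.6 CPM in wild type (1.71 ± 0.18, adjusted p = 0.0192). The Ift88Orpk libraries did not overlap those of wild type for H2-Q7 and Srxn1. H2-Q7 has near-identical neighbours and differs between mouse strains, so its reads may be shared with other class I genes.

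**Figure D2:**
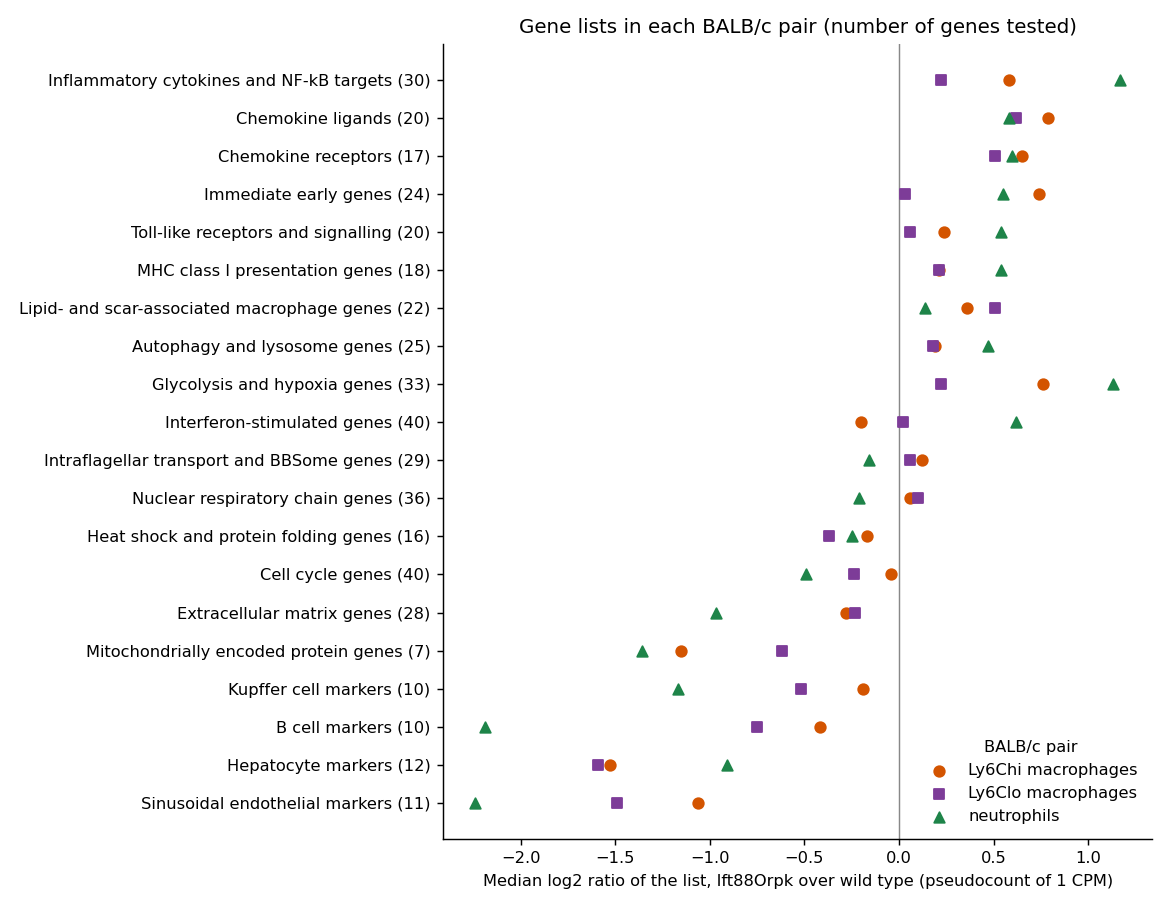
Median log2 ratio (pseudocount of 1 CPM) of Ift88Orpk over wild type for 20 gene lists in the Ly6Chi (circles), Ly6Clo (squares) and neutrophil (triangles) pairs, with the number of genes tested in parentheses. Inflammatory, chemokine and glycolysis lists lie right of 0 in all 3 pairs, and endothelial, hepatocyte, B cell and mitochondrially encoded lists lie left of it in all 3.

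Glycolysis and hypoxia genes leaned to higher values without a called member, with 0 of 33 called by edgeR. At an unadjusted p below 0.05, 17 were higher and 0 lower, against 909 and 980 of all 16379 genes. DESeq2 called 13 higher and 0 lower, against 392 and 466 of all genes. The median log2 fold change was 0.76, and the medians in the pairs were 0.76, 0.22 and 1.13. Slc2a1, the glucose transporter GLUT1, had 113, 55.6 and 556 CPM in Ift88Orpk and 39.1, 35.1 and 165 CPM in wild type (1.32 ± 0.24, adjusted p = 0.0637). Hif1a, the hypoxia-inducible transcription factor, had 221, 95.1 and 366 CPM in Ift88Orpk and 91.3, 65.2 and 103 CPM in wild type (1.22 ± 0.26, adjusted p = 0.0968). Vegfa, its target and a growth factor of endothelium, had 219, 112 and 101 CPM in Ift88Orpk and 15.8, 8.65 and 58.2 CPM in wild type (2.81 ± 0.62, adjusted p = 0.107). None of the 3 passed the threshold, and for Vegfa the ratio was far larger in both macrophage pairs than in neutrophils.

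**Figure D3:**
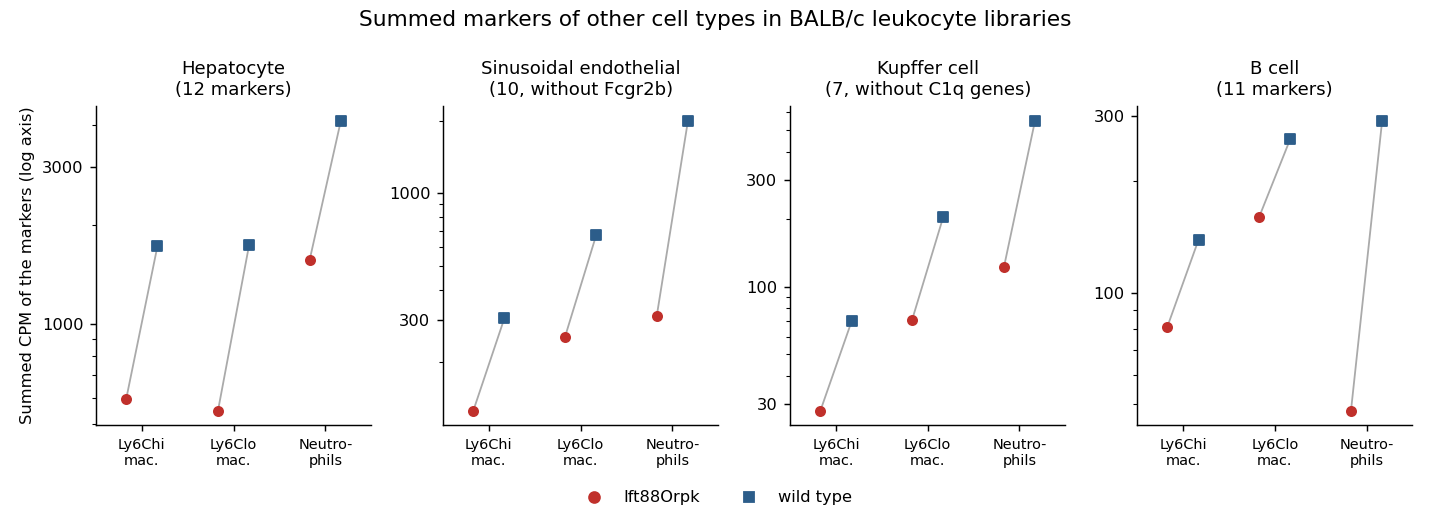
Summed CPM (log axis) of hepatocyte, sinusoidal endothelial (without Fcgr2b), Kupffer cell (without the C1q genes) and B cell markers in each population, with Ift88Orpk (circles) left of wild type (squares), 1 library per point. All circles lie below their squares, which for Kupffer cells holds only without the C1q genes: all 10 markers summed to 189, 565 and 208 CPM in Ift88Orpk and 107, 373 and 756 CPM in wild type.

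Markers of hepatocytes and sinusoidal endothelium were lower in all 3 Ift88Orpk populations, while those of other liver cells were mixed. Cholangiocyte markers summed to 61.3, 67.3 and 39.1 CPM in Ift88Orpk and 47, 28.4 and 40.2 CPM in wild type, and none of the 7 tested was called by edgeR (1 higher and 0 lower at an unadjusted p below 0.05, 1 and 0 by DESeq2). Stellate cell and fibroblast markers summed to 42.3, 68.3 and 109 CPM in Ift88Orpk and 45.5, 69.9 and 185 CPM in wild type, with 1 of 11, Dcn, called lower. Hepatocyte markers summed to 594, 547 and 1570 CPM in Ift88Orpk and to 1720, 1740 and 4140 CPM in wild type, and none of the 12 was at 0 in any library. Of these 12 markers, 6 were called lower and none higher, and 10 were lower in all 3 pairs (median -1.30). Alb, which encodes albumin, had 368, 297 and 1550 CPM in Ift88Orpk and 1180, 1070 and 3460 CPM in wild type (-1.57 ± 0.25, adjusted p = 0.0453). Ttr, the plasma carrier transthyretin, had 18.2, 15.9 and 83.2 CPM in Ift88Orpk and 76.6, 70.2 and 219 CPM in wild type (-1.87 ± 0.21, adjusted p = 0.0198). In both genotypes these genes of hepatocytes were highest in the neutrophil library. In such bulk samples fewer hepatocytes or less of their free RNA among the sorted cells and less RNA per cell cannot be told apart.

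Among the 12 named lower genes, several are products of hepatocytes. Mup3, a major urinary protein, had 0.738, 0.425 and 3.54 CPM in Ift88Orpk and 13.3, 8.38 and 27.9 CPM in wild type (-3.74 ± 0.38, adjusted p = 0.0192). Serpina1a, an alpha-1 antitrypsin, had 1.53, 1.20 and 4.94 CPM in Ift88Orpk and 11.1, 9.68 and 26.9 CPM in wild type (-2.76 ± 0.29, adjusted p = 0.0192). Mup3 and Serpina1a belong to families of near-identical copies, so the values of single members are uncertain. Apoa5, an apolipoprotein made in liver, had 2.78, 1.27 and 8.72 CPM in Ift88Orpk and 12.9, 14.6 and 36.6 CPM in wild type (-2.56 ± 0.35, adjusted p = 0.0338). Egfr, the receptor of epidermal growth factor, had 1.53, 1.70 and 10 CPM in Ift88Orpk and 12.4, 11.8 and 39.4 CPM in wild type (-2.56 ± 0.30, adjusted p = 0.0249). Car3, a carbonic anhydrase abundant in hepatocytes and fat cells, had the most negative log2 fold change of the named genes (-4.53 ± 0.34, adjusted p = 0.0192), at 0.454, 1.47 and 3.13 CPM in Ift88Orpk and 21.6, 23.8 and 64.4 CPM in wild type. The Ift88Orpk values of Car3 rest on 8, 38 and 38 counts. For Car3, Mup3 and Serpina1a the highest Ift88Orpk library was below the lowest wild type library.

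**Figure D4:**
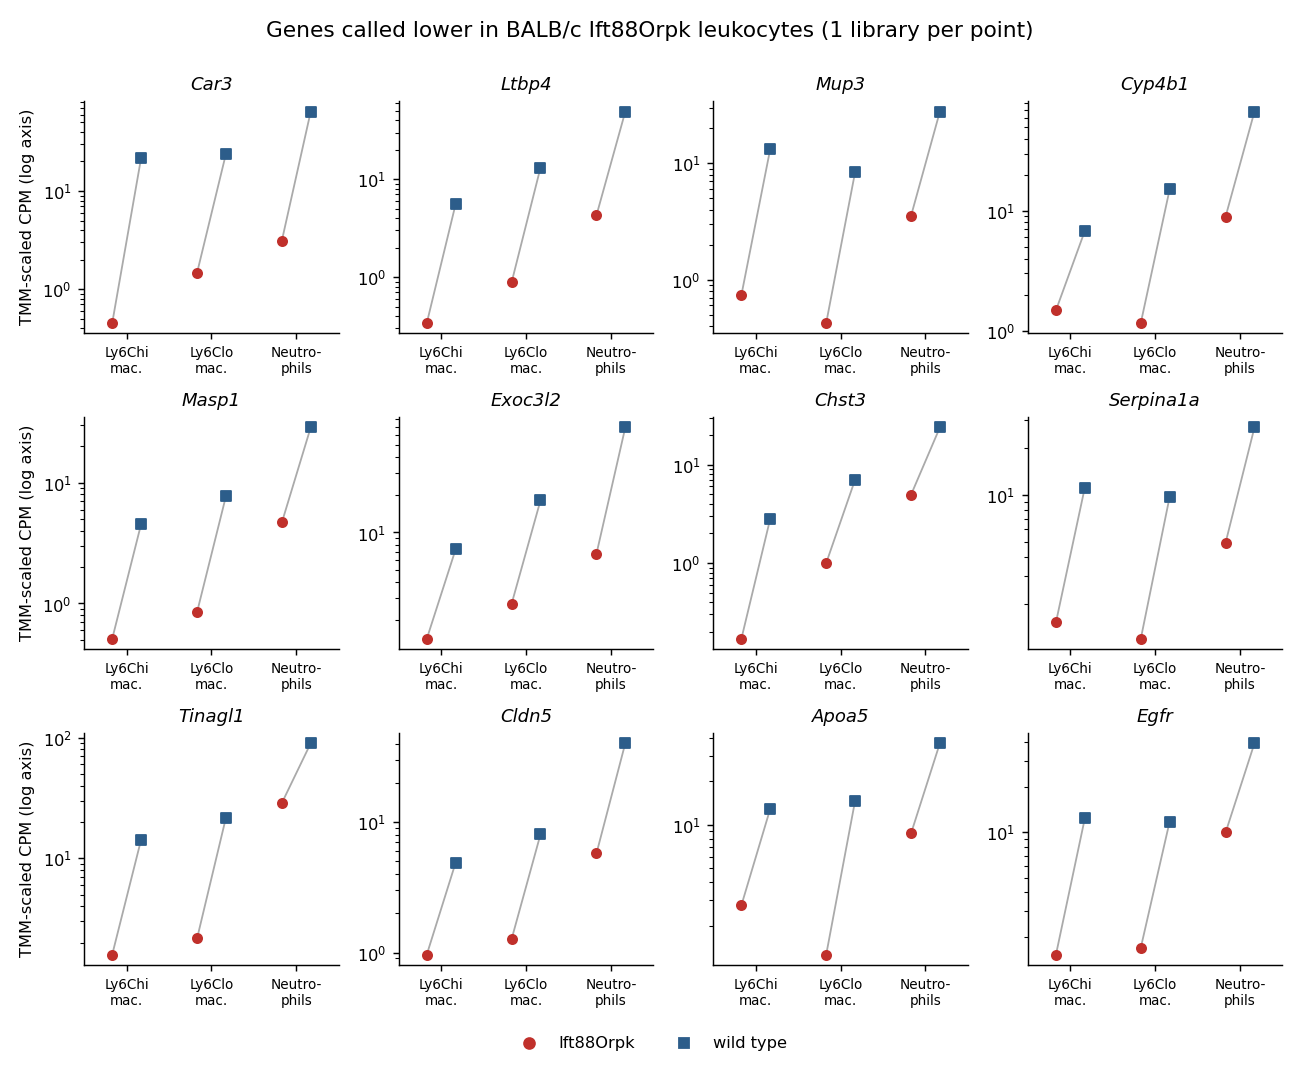
TMM-scaled CPM (log axis) of the 12 genes with the smallest log2 fold changes among those called lower, in each population, with Ift88Orpk (circles) left of wild type (squares), 1 library per point. In every panel the circle lies below its square in all 3 populations, and the neutrophil libraries are the highest of their genotype.

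Endothelial genes made up the other large group. Of 11 sinusoidal endothelial markers, 6 were called lower and none higher, and 9 were lower in all 3 pairs (median -1.74). Stab2, a scavenger receptor of sinusoidal endothelium, had 24.6, 32.0 and 125 CPM in Ift88Orpk and 75.2, 131 and 594 CPM in wild type (-1.97 ± 0.19, adjusted p = 0.0192). Kdr, the receptor of vascular endothelial growth factor, had 26.3, 43.6 and 83.3 CPM in Ift88Orpk and 68.7, 115 and 456 CPM in wild type (-1.74 ± 0.25, adjusted p = 0.0388). The other called markers were Dnase1l3, Oit3, Clec4g and Gpr182, with log2 fold changes of -2.17, -2.42, -2.03 and -1.60. Fcgr2b, an Fc receptor that myeloid cells also express, made up most of the sum in the Ift88Orpk macrophage libraries. Without it, a removal chosen after seeing the values, the other 10 summed to 126, 255 and 312 CPM in Ift88Orpk and 305, 672 and 2000 CPM in wild type.

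Named lower genes outside the endothelial list included Cldn5, the tight junction protein of endothelium, with 0.965, 1.27 and 5.76 CPM in Ift88Orpk and 4.90, 8.06 and 40.4 CPM in wild type (-2.62 ± 0.27, adjusted p = 0.0192). Ltbp4, a binding protein of latent TGF-beta, had 0.341, 0.888 and 4.28 CPM in Ift88Orpk and 5.59, 13.1 and 49.1 CPM in wild type (-3.76 ± 0.28, adjusted p = 0.0192). Both were far higher in the DBA-sorted cells, where Ltbp4 had 126 CPM in Ift88Orpk and 518 CPM in wild type without TMM scaling, and Cldn5 151 and 384 CPM. The remaining named lower genes were Cyp4b1, a cytochrome P450 (-2.95), Masp1, a protease of the lectin pathway of complement (-2.94), Exoc3l2, an exocyst-related gene (-2.85), Chst3, a sulfotransferase of chondroitin (-2.83), and Tinagl1, a matrix glycoprotein (-2.65). Their adjusted p values ran from 0.0192 to 0.0388. Nid1 and Sparc, genes of basement membrane and matrix, and Dcn, the proteoglycan decorin of stellate cells and fibroblasts, were called lower at -1.59, -1.43 and -2.28.

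The DBA-sorted cells, whose 10 endothelial markers summed to 11700 CPM in Ift88Orpk and 19700 CPM in wild type, served as a yardstick for RNA from outside the leukocytes. Of the 121 lower genes, 75 were higher in both BALB/c DBA-sorted libraries than in all 6 leukocyte libraries, as were 1 of the 63 higher genes and 3821 of the 16379 genes tested. The rule sets the lower DBA-sorted library against the highest leukocyte library, so a gene that changed in DBA-sorted cells too could fail it. Vcan failed it, with 355 CPM in the DBA-sorted cells of Ift88Orpk and 41.9 CPM in those of wild type, without TMM scaling. When genes of that kind were left out, an alternative added after seeing the data, 91 of 12592 genes were called, 44 higher and 47 lower, and 88 of these were calls of the full table. When the hepatocyte, endothelial, Kupffer and stellate markers were also left out, 28 were called, 15 higher and 13 lower, and all 28 were calls of the full table, of which 99 were still tested. Fewer small p values then stood in the table over which p values are adjusted. The 12 named higher genes kept their direction in both alternatives, and 10 and then 8 of them their call. Both alternatives left the counts of these 12 genes as they were, so their direction could hardly change. Whether RNA from other cells contributed to the higher genes was not tested.

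Kupffer cell markers were mixed. Of 10 Kupffer cell markers, Clec4f, Cd5l and Vsig4 were called lower and none higher, and 4 had a positive log2 fold change (median -0.83). All 10 summed to 189, 565 and 208 CPM in Ift88Orpk and 107, 373 and 756 CPM in wild type, so that the sum was higher in both macrophage populations and lower in neutrophils. Clec4f, a lectin found on Kupffer cells, had 8.46, 13.4 and 59.7 CPM in Ift88Orpk and 30.8, 66.0 and 324 CPM in wild type (-2.21 ± 0.18, adjusted p = 0.0192). Vsig4, a complement receptor of Kupffer cells, had 1.36, 3.90 and 22.1 CPM in Ift88Orpk and 6.84, 10.1 and 63.6 CPM in wild type (-1.70 ± 0.26, adjusted p = 0.0411). Cd163, a haemoglobin scavenger receptor, had 4.94, 11.3 and 8.89 CPM in Ift88Orpk and 8.97, 49.3 and 42.7 CPM in wild type (-1.77 ± 0.31, adjusted p = 0.0582). The list's median log2 fold change depended on the neutrophil pair and was 0.10 without it. The medians of the log2 ratios within the pairs were -0.19, -0.52 and -1.17. C1qa, a complement subunit that recruited macrophages also express, had 47.7, 151 and 38.3 CPM in Ift88Orpk and 11.2, 46.8 and 75.1 CPM in wild type (adjusted p = 0.625). Without C1qa and the other C1q genes, a removal chosen after seeing the values, the other 7 markers summed to 28.0, 71.2 and 122 CPM in Ift88Orpk and 70.0, 205 and 550 CPM in wild type.

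Markers of other leukocytes were mixed. Of 10 B cell markers none was called by edgeR (0 higher and 6 lower at an unadjusted p below 0.05, 0 and 4 called by DESeq2), although all 10 had a negative log2 fold change (median -1.36). Ms4a1, which encodes CD20, had 0.511, 4.63 and 3.87 CPM in Ift88Orpk and 2.59, 12.6 and 22.5 CPM in wild type (-2.07 ± 0.35, adjusted p = 0.0525). Of 10 dendritic cell markers none was called by edgeR (0 higher and 4 lower at an unadjusted p below 0.05, 0 and 4 called by DESeq2), and Zbtb46, a transcription factor of classical dendritic cells, had 2.38, 44.0 and 8.97 CPM in Ift88Orpk and 5.27, 80.8 and 20.9 CPM in wild type (-1.07 ± 0.19, adjusted p = 0.0579). T and NK cell markers summed to 10.3, 972 and 29.9 CPM in Ift88Orpk and 6.63, 196 and 59.0 CPM in wild type, so that only the Ly6Clo pair held a large difference, and no member was called by edgeR (1 higher and 1 lower at an unadjusted p below 0.05, 1 and 0 by DESeq2). Ear2, a ribonuclease in the Ly6Clo monocyte list, was called lower with 15.5, 10.2 and 1.73 CPM in Ift88Orpk and 45.9, 53.6 and 6.19 CPM in wild type (-1.94 ± 0.24, adjusted p = 0.0280). Camp, the antimicrobial peptide cathelicidin of neutrophil granules, was called lower with 0.738, 31.5 and 74.0 CPM in Ift88Orpk and 3.24, 98.5 and 146 CPM in wild type (-1.48 ± 0.24, adjusted p = 0.0468). Of the eosinophil, basophil and mast cell markers, Epx and Fcer1a were at 0 in all 6 libraries. The part of any of these cells in the called genes was not tested.

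Mitochondrially encoded genes had lower values in Ift88Orpk without a call. Of the 7 tested, none was called by edgeR (0 higher and 6 lower at an unadjusted p below 0.05, 0 and 6 called by DESeq2), and 6 were lower in all 3 pairs (median -1.08). The gene mt-Nd1, for a subunit of complex I, had 120, 91.1 and 245 CPM in Ift88Orpk and 257, 156 and 629 CPM in wild type (-1.08 ± 0.19, adjusted p = 0.0565). The 36 nuclear respiratory chain genes had a median of -0.04 with none called by edgeR (0 and 0 at an unadjusted p below 0.05, 0 and 0 by DESeq2). With mitochondrially encoded genes left out before scaling, 160 genes were called and 157 of them were calls of the full table. Of 16 heat shock and protein folding genes, Hspa1a, an inducible HSP70, was called lower with 35.8, 37.6 and 5.18 CPM in Ift88Orpk and 86.3, 89.0 and 15.5 CPM in wild type (-1.35 ± 0.17, adjusted p = 0.0292). Its neighbour and near-identical copy Hspa1b had 56.6, 86.9 and 15.0 CPM in Ift88Orpk and 202, 265 and 25.1 CPM in wild type (-1.42 ± 0.24, adjusted p = 0.0517). The share of reads in mitochondrial genes and the heat shock genes can follow the handling of cells, and their part in the other results was not tested. Cell cycle genes were not called by edgeR (0 higher and 7 lower of 40 at an unadjusted p below 0.05, 0 and 0 by DESeq2), with a median of -0.30.

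Genes of the cilium's transport machinery showed no called difference. Of 29 intraflagellar transport and BBSome genes none was called by edgeR (1 higher and 0 lower at an unadjusted p below 0.05, 0 and 0 by DESeq2), the median was -0.06, and their summed CPM were 1.04, 0.997 and 0.994 times those of wild type. The smallest p was that of Wdr19, a subunit of the retrograde transport complex, with 6.92, 6.76 and 11.1 CPM in Ift88Orpk and 3.84, 3.02 and 6.88 CPM in wild type (0.90 ± 0.30, adjusted p = 0.288).

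C57BL/6 leukocytes, analysed the same way, shared the direction of the higher genes and not that of the lower ones. In C57BL/6, 27 of 16435 genes were called higher in Ift88Orpk (0.164%) and 11 lower (0.0669%). Of the 62 BALB/c higher genes tested in both strains, 61 were positive in C57BL/6 (98.4%), against 50.7% of all 15530 genes, at a median of 0.51 in C57BL/6 and 1.55 in BALB/c. Of the 121 lower genes, 97 were positive in C57BL/6 (80.2%), at a median of 0.46 in C57BL/6 and -2.02 in BALB/c. Hepatocyte markers had a median of 0.43 and sinusoidal endothelial markers of 0.84 in C57BL/6. The genes called in both strains were Abca1 and H19, higher in both, Mup3 and Serpina3k, lower in both, and Hspg2, Sparc and Ahsg, lower in BALB/c and higher in C57BL/6. Abca1 had a log2 fold change of 1.80 ± 0.27 in BALB/c and 1.37 ± 0.18 in C57BL/6, and Mup3 of -3.74 ± 0.38 in BALB/c and -2.57 ± 0.24 in C57BL/6.

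**Figure D5:**
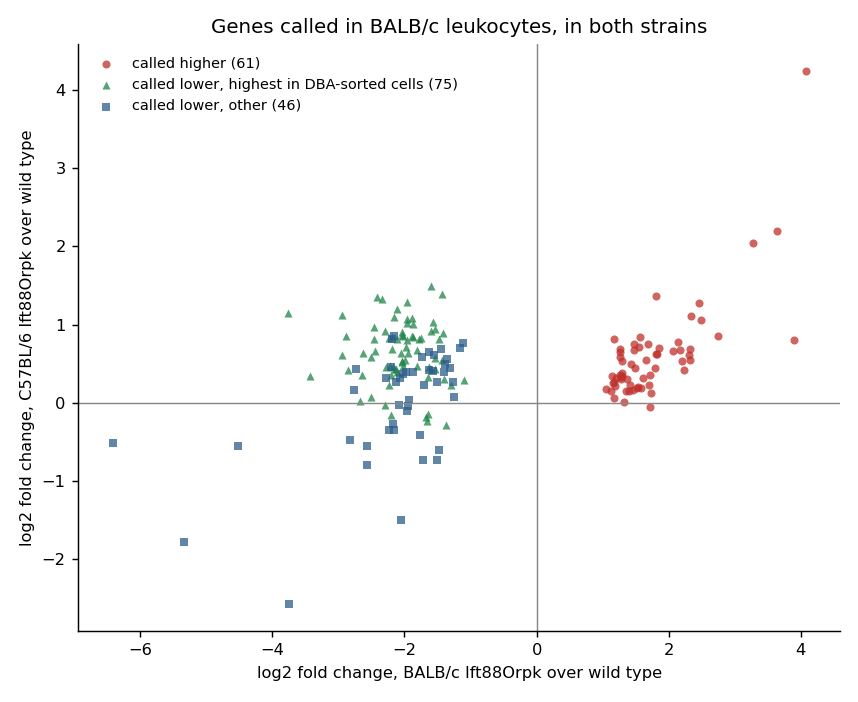
Log2 fold change of Ift88Orpk over wild type in BALB/c (x axis) and C57BL/6 (y axis) leukocytes for genes called in BALB/c and tested in both strains, without H19, whose C57BL/6 wild type libraries were at 0. Genes called higher (circles) lie above 0 in C57BL/6 except H2-Q7, and most genes called lower (triangles for those highest in DBA-sorted cells, squares for the rest) also lie above 0 there.

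The test of the difference between the strains, in 12 leukocyte libraries, called 23 of 18334 genes with a BALB/c effect above that of C57BL/6 (0.125%) and 218 below it (1.19%). The difference was called for 103 of the 121 lower genes and 18 of the higher ones. It was called for 68 of the 75 lower genes that were highest in DBA-sorted cells and for 35 of the other 46. All these genes were chosen for their effect in the same BALB/c libraries that enter this test. That choice by itself favours a called difference. The effect on Cd14 was larger in BALB/c, with a difference of 1.32 and an adjusted p of 0.0390, while for Trem2 (1.64, adjusted p = 0.288) and C3ar1 (1.20, adjusted p = 0.507) the difference did not pass. Xist stood at 158, 413 and 99.1 CPM in C57BL/6 Ift88Orpk and 1250, 1390 and 439 CPM in C57BL/6 wild type, so that in both macrophage pairs it lay the other way from BALB/c. Sex balance and genotype cannot be told apart in C57BL/6, nor in the BALB/c macrophage pairs, where Xist also differed between the genotypes.

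Next to Ift88 on chromosome 14 (GRCm38, 57424062 to 57517936, plus strand), 14 of the 26 annotated genes within 0.5 Mb were tested and none was called by edgeR (2 higher and 0 lower at an unadjusted p below 0.05, 1 and 0 by DESeq2). Within 5 Mb 0 of 109 were called by edgeR, and within 20 Mb 5 of 279 (1.79%) against 1.12% of all genes. Of the 109, 7 were higher and 6 lower at an unadjusted p below 0.05, against 909 and 980 of all 16379. DESeq2 called 2 of the 109 higher and 1 lower, against 392 and 466 of all genes. Il17d, a cytokine of the interleukin 17 family, starts 6841 bases downstream of Ift88 on the same strand (57524777 to 57543166). It had 24, 105 and 10 counts in BALB/c Ift88Orpk and 0, 0 and 0 counts in BALB/c wild type. Against a floor of 3 counts per wild type library it was at least 9.67-fold, 30.3-fold and 4.40-fold higher in the 3 pairs. Its adjusted p was 0.103 in the 6 libraries, and 0.0276 in the fit of 12 libraries of both strains. C57BL/6 leukocytes showed the same, with 60, 184 and 42 counts in Ift88Orpk and 0, 0 and 0 in wild type, and the DBA-sorted cells had 75 counts in Ift88Orpk and 6 in wild type of BALB/c, and 209 counts in Ift88Orpk and 3 in wild type of C57BL/6. Il17d was singled out after its values were seen. Eef1akmt1, a lysine methyltransferase gene 31661 bases from Ift88 on the minus strand, had 162, 163 and 24 counts in BALB/c Ift88Orpk and 111, 65 and 9 in BALB/c wild type (1.27 ± 0.42, adjusted p = 0.271).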

How the data were processed

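The authors' deposited counts are raw reads per gene from HTSeq-count 0.9.1 after alignment with STAR to GRCm38, per the labels' protocols (paired-end 75 nt reads, ribosome reduction, RNA integrity number above 7). The sources used here give no STAR version, no strand setting and no annotation release. Of 48795 gene rows, 48349 matched GENCODE M21, and 5 summary lines were left out, so that genes held 44.8 to 55.3% of the counted reads. Genes were filtered with filterByExpr and tested with edgeR 4.0.16 (R 4.3.3, quasi-likelihood test, TMM factors, population as a block, Benjamini-Hochberg adjustment over all genes tested, threshold 0.05), with DESeq2 1.42.0 as an alternative. Standard errors were derived from the F statistic. Ratios within pairs used TMM-scaled values. The fit was checked on simulated counts with a fixed dispersion and the same change in each population, a simpler setting than these data. Of log2 changes of 1 it recovered 68.5% in the BALB/c fit and 16.1% in the fit of the strain difference. Of log2 changes of 2 it recovered 98.9% and 95.3%.

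Named genes were the 12 with the largest and the 12 with the smallest log2 fold change among called genes whose mean reached 10 CPM in 1 genotype and whose direction was the same in all pairs. Predicted, antigen receptor, mitochondrial and sex-linked genes were skipped. Members of 14 marker and 29 process lists are examples, taken by p, with no more than 6 from a list. For the strain difference 6 and 6 were named. The members and lists were chosen with earlier results of these data known. List medians carry no test. Some genes of the lists are not reported here. Alternatives were other scaling factors, filters, DESeq2, each pair left out, no block, 12 libraries, and gene sets left out. p values measure the spread between populations.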

Additional observations from a re-analysis of the deposited data

Results flagged for a closer look

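The genes below had a genotype effect that differed between the strains by a test of the difference itself (edgeR, 12 leukocyte libraries, BALB/c log2 fold change minus that of C57BL/6), 6 in each direction. The difference was 2.91 for Vcan, 1.85 for Spon1, 1.57 for Soat2 and 1.43 for Cxcl2, whose fold changes were positive in both strains. It lost its call for Vcan, Spon1, Soat2 and Cxcl2 when 1 population was left out, with adjusted p up to 0.112, 0.104, 0.302 and 0.289, and for Vcan also with DESeq2 (0.263). For H2-Q7 the difference was 1.71, with no change in C57BL/6 that passed (103, 209 and 51.6 CPM in Ift88Orpk and 103, 250 and 45.6 CPM in wild type). For Atp6v0c-ps2, a pseudogene whose reads may be shared with its parent gene, it was 2.29.

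The difference was -4.95 for Ltbp4, -4.12 for Cyp4b1 and -3.81 for Oit3, which were lower in BALB/c Ift88Orpk and positive in C57BL/6, and -4.01 for Car3. It was -8.33 for the imprinted RNA H19 and -10.98 for Rprl3. Both had 0 counts in all 3 C57BL/6 wild type leukocyte libraries, so these fitted values depend on the prior count and are no bound. H19 had 344, 432 and 778 counts in BALB/c Ift88Orpk, 109, 146 and 573 in BALB/c wild type, and 114, 184 and 147 in C57BL/6 Ift88Orpk. Rprl3 had 203, 214 and 216 counts in BALB/c Ift88Orpk, 308, 398 and 459 in BALB/c wild type, and 219, 256 and 191 in C57BL/6 Ift88Orpk.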

How the results depend on the processing

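The count of 184 called genes (63 higher, 121 lower) moved with the filter, the tool, the libraries, the block and the genes left in. It was 705 (305 and 400) with no filter, 858 (392 and 466) with DESeq2 and 620 (265 and 355) in the fit of 12 libraries. It was 322 to 757 with 1 pair left out (81 to 390 higher, 241 to 367 lower). Without the genes highest in DBA-sorted cells it was 91 (47 lower), and without those and the marker lists 28 (15 and 13). With no population block edgeR called 0 genes (0 higher, 0 lower), with 254 at an unadjusted p below 0.05. No paired analysis by replicate number was possible because the labels number no replicates, and the block was the population. The 184 genes kept their direction in all alternatives in which they were tested, and all 24 named genes did. Each of these genes already moved the same way in every pair, and the alternatives refit the same counts. Their direction could thus hardly change, and its being kept is no check of the calls.

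The strain difference (241 genes, 23 above and 218 below) was called for 815 (234 and 581) with no filter, 559 (120 and 439) with DESeq2, 14 above at 5 CPM in 2 libraries, and 8 to 94 above with 1 population left out. The genes at least 2-fold in every pair (60 higher, 184 lower) were 138 and 327 at a pseudocount of 0.25 CPM, 24 and 43 at 5 CPM, 279 and 503 at 1.5-fold, and 60 lower at 10 CPM in the higher library. Saa3 and Ier3 were the named genes that lost their call with mitochondrial genes left out (adjusted p = 0.0565 and 0.0503). The cause of these shifts was not tested. Each population had 1 library per genotype, which limits the precision, and genes under about 1 CPM rest on few counts.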

Other observations

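Natural killer cell genes had their highest levels in the Ly6Clo pair. Ncr1, the receptor NKp46, had 0.908, 178 and 2.63 CPM in Ift88Orpk and 0.231, 27.4 and 1.90 CPM in wild type, and Gzma, a granzyme of cytotoxic lymphocytes, 3.41, 388 and 5.43 CPM in Ift88Orpk and 2.22, 65.7 and 6.04 CPM in wild type. Lck, a kinase of T and NK cells, had 74.1 CPM in the Ift88Orpk Ly6Clo library and 14 CPM in the wild type one, while Cd4 had 12.9 and 25.4 CPM and Trac 0.772 and 1.26 CPM. None of these was called over the 3 pairs, and with 1 library per genotype the Ly6Clo pair alone has no test. Of 18 neutrophil granule genes, 6 were lower and 1 higher in all 3 pairs, 1, Camp, was called lower by edgeR and 3 by DESeq2, and 4 had a positive log2 fold change. Camp aside, Ngp was lower in each pair, with 3.92, 174 and 588 CPM in Ift88Orpk and 13.6, 406 and 814 CPM in wild type (adjusted p = 0.135), and so was Ltf, with 3.97, 156 and 618 CPM in Ift88Orpk and 6.52, 409 and 936 CPM in wild type (adjusted p = 0.140).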
